A study of Mus musculus with 8 samples.

Results

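The microRNAs (miRNAs) mmu-miR-23a-3p, mmu-miR-23b-3p, mmu-miR-27a-3p, mmu-miR-27b-3p and mmu-miR-24-3p (below without the mouse prefix mmu) are the main products of a pair of duplicated miRNA clusters, and all 5 were measured in culture medium of primary mouse muscle cells. They were chosen by name, with earlier results of these data known, and are 5 of the 1881 mouse miRNAs on the array. The series compared miRNAs in the medium of muscle cells that carry a mutant human SOD1 gene, a mouse model of amyotrophic lateral sclerosis (ALS), with those of cells that carry the normal human gene. Myoblasts from the hind-leg muscle of newborn pups (1 to 3 days old, labelled Male) were grown as co-cultures in which a bottom chamber and an insert were joined by a porous membrane (0.4 µm pores) and shared 1 medium, seeded with 2.5 and 1.5 units of 1e5 cells. The medium was taken at 2 days in vitro, and 150 ng of its small RNA was labelled and hybridised to 1 single-colour Agilent array per co-culture.

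The 8 arrays fall into 3 groups, named as bottom chamber/insert. G93A/G93A (n = 3) held hSOD1(G93A) cells in both compartments, from the strain B6SJL(Tg-SOD1*G93A)1Gur/J. G93A/WT (n = 3) held hSOD1(G93A) cells at the bottom and hSOD1(WT) cells in the insert. WT/WT (n = 2) held hSOD1(WT) cells in both, from the strain B6SJL(Tg-SOD1)2Gur/J. Every culture therefore carried a human SOD1 transgene, the WT/WT cultures included, and non-transgenic cells and the reverse mixed culture were not analysed here. Pups came from hemizygous transgenic fathers and non-transgenic hybrid mothers. A miRNA array does not read SOD1, so the genotype labels could not be checked with it. The culture media contained bovine or horse serum (10% foetal bovine serum at first, 2% horse serum after 2 days), and miRNAs of cattle and horses with an identical sequence would give the same signal as those of mice.

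Between 450 and 563 mouse miRNAs were detected per array, and 423 on all 8. Across those 423, replicate arrays correlated at r = 0.978 to 0.994, and pairs from unlike groups at r = 0.958 to 0.990. All arrays came from 1 slide. The 3 G93A/G93A arrays shared slide row 2 with WT/WT 2, and the 3 G93A/WT arrays shared row 1 with WT/WT 1. Each row thus links a group with mutant cells to a single WT/WT array. The muscle miRNAs miR-1a-3p, miR-133a-3p, miR-133b-3p and miR-206-3p were detected on all 8 arrays, with a summed signal of 4094 to 5063 in G93A/G93A, 4341 to 5256 in G93A/WT and 4522 to 5194 in WT/WT. Those ranges overlapped, and none of the 4 passed the test between any groups.

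A miRNA is a short RNA that guides a silencing complex to messenger RNAs, chiefly through its seed, the bases at positions 2 to 8. The miR-23a, miR-27a and miR-24-2 hairpins are cut from a single primary transcript, and miR-23b, miR-27b and miR-24-1 from another. In mouse muscle miR-23a is known to restrain the atrophy ubiquitin ligases atrogin-1 and MuRF1, miR-27 lowers Pax3 and myostatin, and miR-24 promotes myoblast differentiation. Such miRNAs also leave cells, in vesicles or bound to proteins, and can be measured in medium and serum.

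The mature sequences show which members share a seed and which differ by so little that their signals may mix. They are printed 5′ to 3′ from RefSeq (GRCm38.p6), with the seed in capitals, for the 4 of 5 members that matched the sequence table.
miR-23a-3p: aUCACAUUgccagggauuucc
miR-27a-3p: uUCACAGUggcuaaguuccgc
miR-27b-3p: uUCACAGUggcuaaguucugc
miR-24-3p: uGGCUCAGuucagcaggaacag
On the plus strand, miR-23a-3p lies at chr8:84208563-84208583, miR-27a-3p at chr8:84208727-84208747 and miR-27b-3p at chr13:63300760-63300780. The miR-27 pair shares the seed UCACAGU and 20 of 21 bases, and differs by C19U (miR-27a-3p base first, counted from the 5′ end). A probe for one of them may therefore pick up some of the other, and their separate signals are uncertain to that extent. The sequence of miR-23b-3p was missing from the table, so the miR-23 pair could not be compared in this way. Whether the miR-23 probes pick up each other's target was not tested, so the pair may not give separate readings. The seed GGCUCAG of miR-24-3p is shared on the array by miR-5124b, miR-6369, miR-6410 and miR-6413, and none of these was detected on any array.

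miR-24-3p is encoded in both clusters, at chr8:84208875-84208896 and at chr13:63301251-63301272, also on the plus strand. Its hairpins, shown because the mature sequence in capitals is the same in both while the rest differs, are the following.
Mir24-2: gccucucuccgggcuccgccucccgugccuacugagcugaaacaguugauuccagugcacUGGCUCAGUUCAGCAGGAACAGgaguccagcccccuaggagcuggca
Mir24-1: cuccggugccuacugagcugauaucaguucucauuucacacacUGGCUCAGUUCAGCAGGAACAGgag
The array reads the product of both loci as 1 value, so miR-24-3p cannot be assigned to either cluster. The chromosome 8 cluster (Mir23a, Mir27a, Mir24-2) spans 404 bases. The chromosome 13 cluster (Mir23b, Mir27b, Mir24-1) spans 792 bases and lies within the bounds of the gene Aopep, an aminopeptidase. The miR-3074 genes lie on the opposite strand over the Mir24 hairpins, and no miR-3074 arm was detected on any array.

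**Figure D1:**
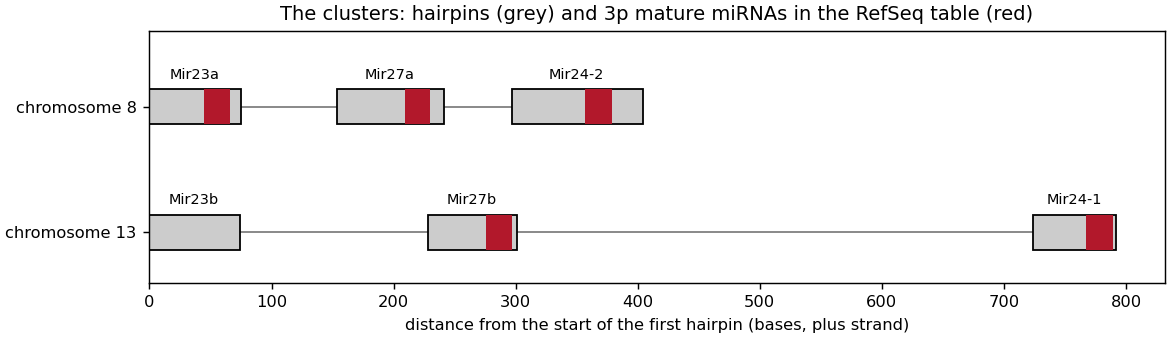
The x axis gives the distance in bases from the start of the first hairpin of each cluster, with hairpins in grey and the 3p mature miRNAs that matched the sequence table in red. The 3 hairpins on chromosome 8 span 404 bases and those on chromosome 13 span 792 bases, with Mir24-1 set apart from its neighbours.

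All 5 members were detected on all 8 arrays. Both miR-23 miRNAs were lower in G93A/G93A medium than in WT/WT medium. miR-23a-3p fell by 30.9% and miR-23b-3p fell by 40.9%, while the differences of miR-24-3p (−22.5%), miR-27a-3p (−22.7%) and miR-27b-3p (−16.1%) did not pass the test. No member passed in G93A/WT against WT/WT or in G93A/G93A against G93A/WT. Of all tested miRNAs, 8.55% passed in the first of these comparisons, 3.9% in the second and 10.6% in the third. Values are the array's total signal per miRNA, scaled to give all arrays an equal 75th percentile over the 423 miRNAs. Groups were compared as differences of log2 scaled signals with limma, and p-values were adjusted over the 538 miRNAs detected on at least 2 arrays, with a threshold of 0.05. In medium, fewer cells of a type, less of the miRNA per cell, less release per cell and a part from serum cannot be told apart. No cell-free medium was analysed, and the labels do not say which serum the collected medium held.

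miR-23a-3p had scaled signals of 413, 459 and 479 in G93A/G93A, 507, 468 and 489 in G93A/WT, and 711 and 593 in WT/WT. Both WT/WT arrays lay above all others, and the groups with mutant cells overlapped. On the log2 scale its means were 8.81 ± 0.11 in G93A/G93A, 8.93 ± 0.057 in G93A/WT and 9.34 ± 0.19 in WT/WT (SD, n = 3, 3 and 2). G93A/G93A minus WT/WT was −0.53 ± 0.12 (SE, limma adjusted p = 0.0437, 95% interval −0.82 to −0.24). With the slide row as a block, which leaves WT/WT 2 alone as the comparison, the difference was −0.40 and the call was lost (limma adjusted p = 0.233). The call was also lost without any single array other than G93A/G93A 3, with differences between −0.66 and −0.40 when 1 array was left out.

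miR-23b-3p, whose hairpin lies on chromosome 13, had scaled signals of 35.8, 48.7 and 43.4 in G93A/G93A, 55.8, 50.8 and 53.0 in G93A/WT, and 69.5 and 73.7 in WT/WT. The 3 groups did not overlap, and G93A/WT lay between the pure cultures. Its log2 means were 5.40 ± 0.22 in G93A/G93A, 5.73 ± 0.068 in G93A/WT and 6.16 ± 0.059 in WT/WT (SD, n = 3, 3 and 2). G93A/G93A minus WT/WT was −0.76 ± 0.14 (SE, limma adjusted p = 0.0234, 95% interval −1.10 to −0.42). With the slide row as a block it was −0.80, with the call lost (limma adjusted p = 0.135). Without WT/WT 1 it was −0.80 and without WT/WT 2 it was −0.72, again without passing (limma adjusted p = 0.135 and 0.120), and it passed without any 1 of the other 6 arrays.

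miR-24-3p had scaled signals of 297, 319 and 326 in G93A/G93A, 339, 409 and 384 in G93A/WT, and 388 and 423 in WT/WT. Every G93A/G93A array was below every other array, while G93A/WT and WT/WT overlapped. Its log2 means were 8.29 ± 0.069 in G93A/G93A, 8.56 ± 0.14 in G93A/WT and 8.66 ± 0.087 in WT/WT (SD, n = 3, 3 and 2). G93A/G93A minus WT/WT was −0.37 ± 0.12 (SE) and did not pass (limma adjusted p = 0.108, 95% interval −0.65 to −0.088).

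miR-27a-3p had scaled signals of 60.1, 88.8 and 119 in G93A/G93A, 137, 114 and 121 in G93A/WT, and 135 and 91.3 in WT/WT. Its groups overlapped, with log2 means of 6.42 ± 0.49 in G93A/G93A, 6.95 ± 0.13 in G93A/WT and 6.80 ± 0.40 in WT/WT (SD, n = 3, 3 and 2). G93A/G93A minus WT/WT was −0.37 ± 0.30 (SE, limma adjusted p = 0.483), with a 95% interval of −1.08 to 0.34 that holds no change as well as the size seen for miR-23b-3p.

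miR-27b-3p had scaled signals of 12.6, 31.9 and 36.4 in G93A/G93A, 40.3, 48.4 and 46.4 in G93A/WT, and 47.1 and 18.1 in WT/WT. G93A/G93A 1 and WT/WT 2 were each far below the rest of their own group, and both lay in slide row 2. The log2 means were 4.61 ± 0.83 in G93A/G93A, 5.49 ± 0.14 in G93A/WT and 4.87 ± 0.98 in WT/WT (SD, n = 3, 3 and 2). G93A/G93A minus WT/WT was −0.25 ± 0.54 (SE, limma adjusted p = 0.829, 95% interval −1.53 to 1.02), and its sign turned without WT/WT 1 (0.44) or without G93A/G93A 1 (0.22).

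**Figure D2:**
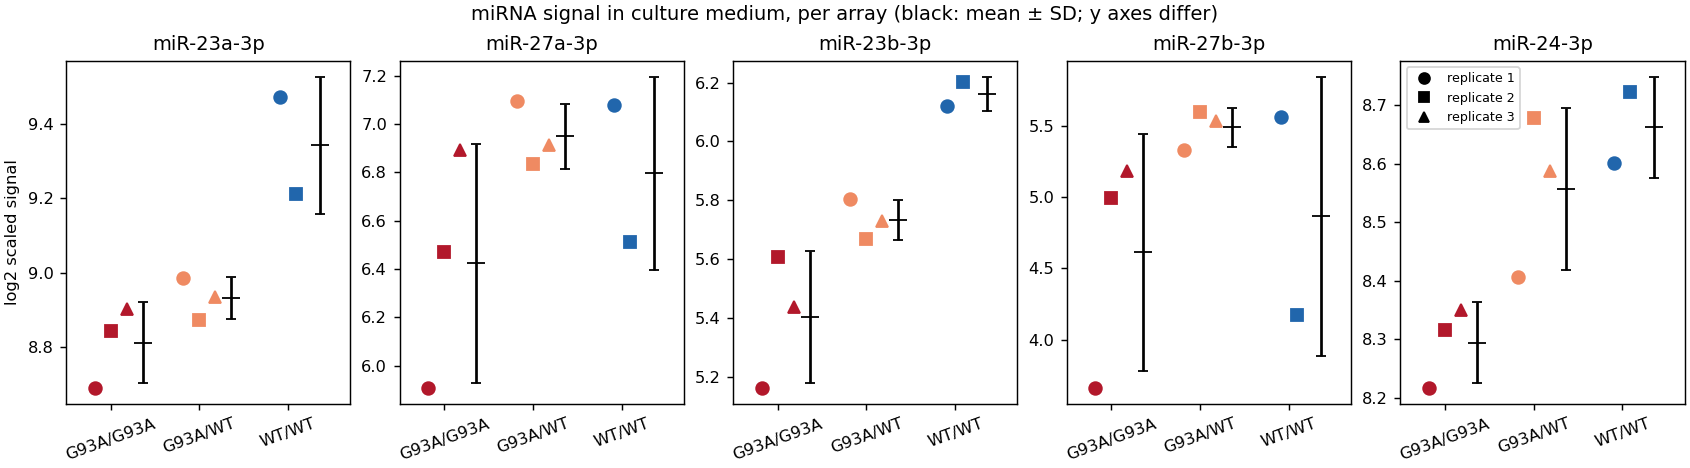
Each panel shows 1 miRNA, with the log2 scaled signal on the y axis (scales differ), 1 point per array in G93A/G93A, G93A/WT and WT/WT, and the mean ± SD in black. For miR-23a-3p and miR-23b-3p both WT/WT arrays lie above all others, and for miR-27b-3p the points G93A/G93A 1 (3.66) and WT/WT 2 (4.18) lie far below the rest of their groups.

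In order of level, miR-23a-3p, miR-23b-3p and miR-24-3p each stood lowest in G93A/G93A and highest in WT/WT. For miR-23a-3p the neighbours G93A/G93A and G93A/WT overlapped, and for miR-24-3p the neighbours G93A/WT and WT/WT overlapped. Both miR-27 miRNAs had their highest mean in G93A/WT and their lowest in G93A/G93A, and WT/WT overlapped both of its neighbours.

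In G93A/G93A against WT/WT, 2 of the 5 members passed, both as lower, and over all tested miRNAs 8.55% passed, 4.83% as lower and 3.72% as higher. The share lower among miRNAs detected on all 8 arrays was 4.02%. The groups did not overlap, with G93A/G93A below, for 3 of the 5 members and for 22.7% of tested miRNAs. All 5 differences were below 0, as were 50.6% of those tested and 57% of those detected on all 8 arrays. The members' median difference was −0.37, and the median was −0.0061 over all tested miRNAs and −0.073 over those detected on all 8 arrays.

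In the mixed culture, miR-23a-3p and miR-23b-3p were again below both WT/WT arrays. G93A/WT minus WT/WT was −0.41 ± 0.12 for miR-23a-3p (SE, limma adjusted p = 0.101) and −0.43 ± 0.14 for miR-23b-3p (SE, limma adjusted p = 0.130). These 2 of 5 members did not overlap between the groups, and 26% of tested miRNAs likewise lay below without overlap. miR-24-3p differed by −0.11 (95% interval −0.39 to 0.17), miR-27a-3p by 0.15 (−0.55 to 0.86) and miR-27b-3p by 0.62 (−0.66 to 1.90). None of the 5 passed, against 3.9% of tested miRNAs that did, 0.743% as lower and 3.16% as higher. At an unadjusted limma p under 0.05 these were 132 of 538 miRNAs, with 2 members among them. The members' median was −0.11 and that of all tested miRNAs 0.043.

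Scale factors, low where an array is bright, ran from 0.973 to 1.31 in G93A/G93A, from 0.593 to 0.933 in G93A/WT and from 1.13 to 1.44 in WT/WT. The G93A/WT arrays were thus the brightest. Directions that involve G93A/WT depend on the scaling. Without any scaling, G93A/WT minus WT/WT was 0.36 for miR-23a-3p, 0.34 for miR-23b-3p and 0.67 for miR-24-3p, while the median of all tested miRNAs was 0.79. Relative to that median the same differences were −0.43, −0.45 and −0.13, close to the scaled values.

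Between the cultures with mutant cells, G93A/G93A minus G93A/WT was −0.33 ± 0.13 for miR-23b-3p (SE, limma adjusted p = 0.137), −0.26 ± 0.11 for miR-24-3p (SE, adjusted p = 0.146) and −0.88 ± 0.48 for miR-27b-3p (SE, adjusted p = 0.248). These 3 of 5 members did not overlap between the groups, as was so, in the same direction, for 19.1% of tested miRNAs. miR-27a-3p differed by −0.52 ± 0.27 (SE) and miR-23a-3p by −0.12 ± 0.11 (SE), both with overlap. None of the 5 passed, against 10.6% of tested miRNAs, 5.2% as lower and 5.39% as higher. At an unadjusted limma p under 0.05 these were 173 of 538 miRNAs, with 2 members among them. Slide row 1 held all G93A/WT arrays and row 2 all G93A/G93A arrays, so row and group cannot be told apart here. A row effect could be estimated only from WT/WT 1 and WT/WT 2, 1 array per row. With the row as a block the differences of miR-23a-3p, miR-27a-3p and miR-27b-3p were above 0 (0.14, 0.042 and 0.51). These values thus rest on the gap between those 2 WT/WT arrays.

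A further contrast set G93A/WT against the midpoint of the pure cultures, the mean of the G93A/G93A and WT/WT group means on the log2 scale. It weights the pure cultures equally, while G93A/WT was seeded with 2.5 units of hSOD1(G93A) and 1.5 units of hSOD1(WT) cells. The midpoint is thus a reference and not the value of an additive mix, and a place above or below it depends on these weights. The miR-23 pair lay near or below that midpoint, by −0.15 ± 0.099 for miR-23a-3p and −0.049 ± 0.12 for miR-23b-3p (SE). miR-24-3p lay 0.078 ± 0.095 above it, miR-27a-3p 0.34 ± 0.24 and miR-27b-3p 0.75 ± 0.44 (SE). None of the 5 passed (limma adjusted p between 0.285 and 0.765), against 7.43% of tested miRNAs that did, and the 95% intervals of all 5 hold 0. At an unadjusted limma p under 0.05 these were 155 of 538 miRNAs and 0 of the 5. The contrasts share arrays, so their values are not independent of each other.

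**Figure D3:**
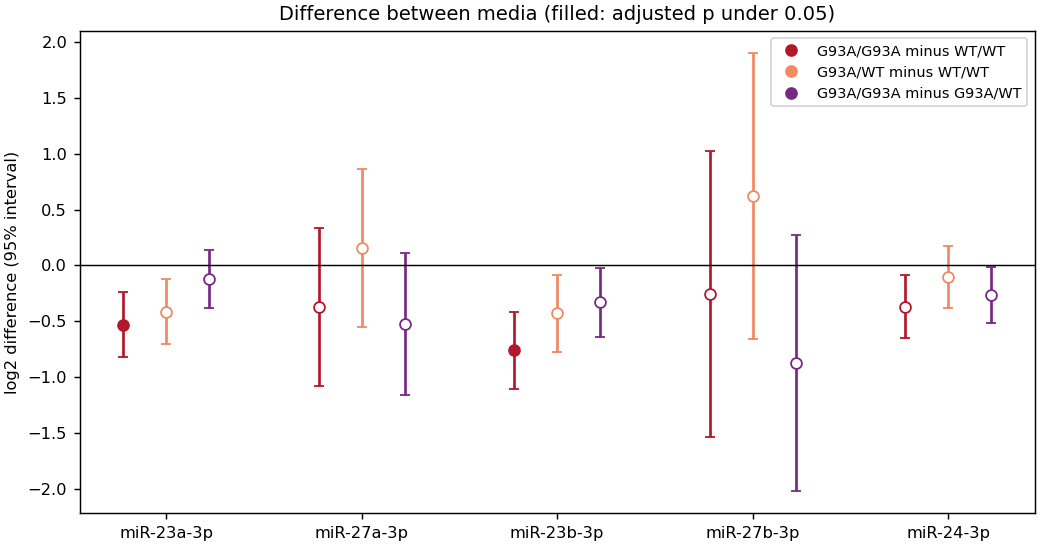
The y axis gives the log2 difference with its 95% interval for each member in 3 comparisons, with filled points where the adjusted p was under 0.05. Only miR-23a-3p (−0.53) and miR-23b-3p (−0.76) in G93A/G93A minus WT/WT are filled, and the intervals of miR-27b-3p are the widest.

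Ratios between members on the same array do not depend on the scaling. The level of such a ratio reflects the probes, so only its difference between groups is read. The log2 ratio of miR-23b-3p over miR-23a-3p was −3.53, −3.24 and −3.46 in G93A/G93A, −3.18, −3.20 and −3.21 in G93A/WT, and −3.36 and −3.01 in WT/WT. It lay lower in all G93A/G93A arrays than in all G93A/WT arrays, by −0.21 (exact permutation p = 0.1, 2-sided, the smallest possible, adjusted p = 0.45 over 6 comparisons). Against WT/WT the G93A/G93A ratio differed by −0.23 (exact permutation p = 0.3), with overlap.

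The ratio of miR-27b-3p over miR-27a-3p overlapped between all groups. It averaged −1.81 ± 0.39 in G93A/G93A, −1.46 ± 0.27 in G93A/WT and −1.93 ± 0.58 in WT/WT (SD, n = 3, 3 and 2), with exact permutation p-values of 0.3 to 0.7. Set against miR-24-3p on the same array, miR-23b-3p differed from WT/WT by −0.39 in G93A/G93A and by −0.32 in G93A/WT, both without overlap (exact permutation p = 0.2 each). Of the 12 comparisons with miR-24-3p none passed, with adjusted p-values of at least 0.6. No p below 0.1 is possible with these numbers of arrays.

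**Figure D4:**
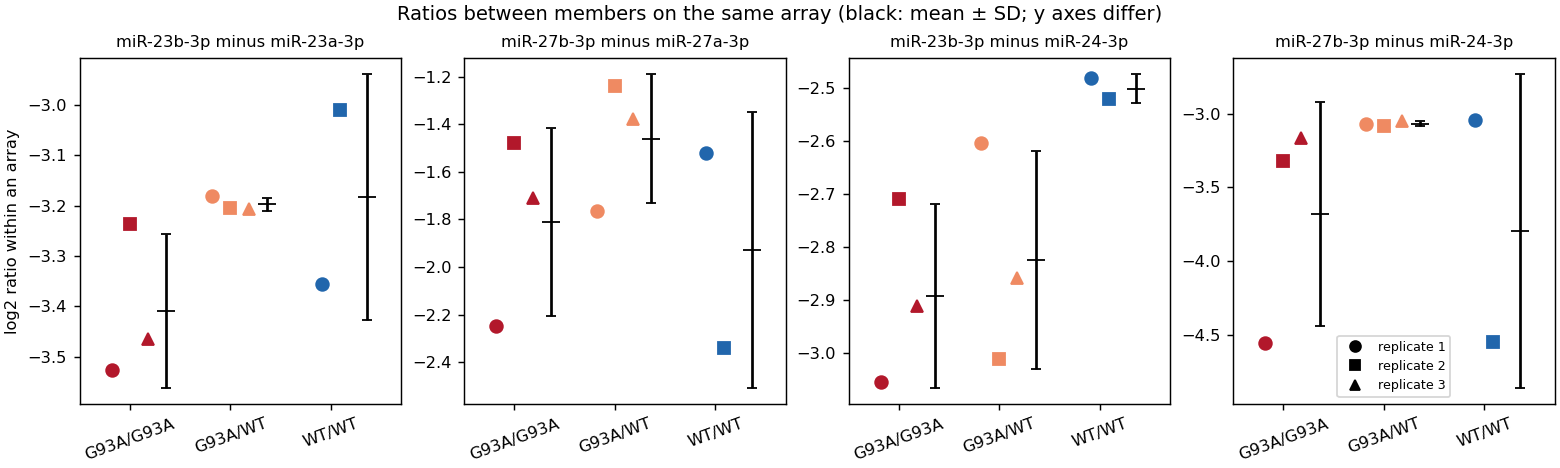
Each panel shows a log2 ratio of 2 members on the same array, by array and with the mean ± SD in black, in G93A/G93A, G93A/WT and WT/WT. The ratio of miR-27b-3p to miR-24-3p is tight in G93A/WT (−3.08 to −3.05) and splits in the other groups, with G93A/G93A 1 at −4.56 and WT/WT 2 at −4.55.

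In the G93A/G93A and WT/WT media, miR-27b-3p had the largest SD of the 5 members. WT/WT 2 minus WT/WT 1 was −1.38 on the log2 scale, rank 3 from the lowest among the 423 miRNAs detected on all arrays. G93A/G93A 1 stood at −1.43 from the mean of G93A/G93A 2 and 3, the lowest of the 423. For miR-27a-3p the same gaps were −0.57 (rank 28) and −0.77 (rank 19), and for miR-24-3p they were 0.12 and −0.12. The error given with the total signal of miR-27b-3p was 8.69% to 14.2% of that signal. The authors' deposited table of processed values also put these arrays lowest, with miR-27b-3p at 13.7 on G93A/G93A 1 and 19.1 on WT/WT 2 and between 30.8 and 49.0 on the other 6. These arrays were singled out after their values were seen, and what sets them apart was not tested.

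Across the 8 arrays, miR-27a-3p and miR-27b-3p varied together (Pearson r = 0.897, exact permutation p = 0.00518, adjusted p = 0.0259 over 10 member pairs). Spearman's rho was 0.667 (exact permutation p = 0.0831, adjusted p = 0.166), so the relation did not pass by rank. Without G93A/G93A 1 and 2, which lie farthest from the median of miR-27a-3p, r was 0.819, and after each group was centred on its mean r was 0.888. Neither check leaves out both arrays that were low for miR-27b-3p, G93A/G93A 1 and WT/WT 2. The miR-27 probes read the near-identical sequences printed above. The miR-23 pair passed by both measures (adjusted permutation p = 0.0259 for r and 0.0456 for rho), but its WT/WT arrays lay apart from the rest, and with each group centred on its mean r was 0.419. The other 8 pairs did not pass.

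The opposite arms of the hairpins were nearly absent from the medium. miR-23b-5p, miR-27a-5p, miR-27b-5p, miR-24-1-5p and miR-24-2-5p were detected on 0 of 8 arrays. miR-23a-5p was detected on G93A/WT 2 and G93A/WT 3 alone, at scaled signals of 2.21 and 2.45, barely above the floor of 1.52 given to undetected miRNAs. Those arrays had the lowest scale factors (0.593 and 0.755) and the most detected miRNAs (563 and 520). Its difference between G93A/WT and WT/WT did not pass (limma adjusted p = 0.237).

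Of 34 other miRNAs known from myogenesis or muscle atrophy, 33 were on the array and 27 were tested. In G93A/G93A against WT/WT, 5 of the 27 fell, 0 rose and 22 did not pass (8.55% of all tested miRNAs passed), with a median difference of −0.30 and 19 below 0. miR-125b-5p, known in mouse to restrain myoblast differentiation, averaged 9.03 ± 0.097 in G93A/G93A and 9.83 ± 0.064 in WT/WT on the log2 scale (SD, n = 3 and 2), a difference of −0.79 ± 0.11 (SE, limma adjusted p = 0.00929). miR-199a-5p fell by 0.85 ± 0.17, miR-378a-3p, which promotes differentiation in mouse myoblasts, by 0.65 ± 0.15, and miR-431-5p, which restrains Pax7 in mouse, by 0.46 ± 0.11 (log2, SE). miR-181a-5p, which promotes myoblast differentiation in mouse, was undetected on every G93A/G93A array and detected on both WT/WT arrays, at least 3.29-fold lower (limma adjusted p = 0.000891). That bound sets the bright group's mean against the mean lowest detected signal of the dim group's arrays. The G93A/G93A values of miR-181a-5p are all the floor (SD 0). It met the detection filter through the other groups, so its p is not read as support. In size the differences of miR-23a-3p and miR-23b-3p thus lay within the range of these other miRNAs that fell.

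In G93A/G93A against G93A/WT, 4 of the 27 fell, 0 rose and 23 did not pass (10.6% of all tested miRNAs passed), with a median of −0.34. They were miR-26a-5p (−0.62 ± 0.14, SE), which promotes myoblast differentiation in mouse, miR-431-5p (−0.42 ± 0.099, SE), miR-181a-5p (at least 2.31-fold lower) and miR-682, detected on 1 of 3 G93A/G93A arrays and on 3 of 3 G93A/WT arrays. G93A/G93A holds the floor value for miR-181a-5p on every array and for miR-682 on every array but G93A/G93A 3. Their calls are thus counted among the 4 but not read as support. In G93A/WT against WT/WT only miR-682 passed. It rose at least 2.73-fold, since it was undetected on both WT/WT arrays (limma adjusted p = 0.000494), and the median of the 27 was 0.032. Both WT/WT values of miR-682 are the floor (SD 0). It met the detection filter through the G93A/WT arrays, which were the brightest, so its p is not read as support.

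Some miRNAs listed as markers of other cells also differed between the groups. Of the fibroblast list, miR-199a-3p, miR-199a-5p and miR-214-3p are also among the listed myogenesis and atrophy miRNAs, so they do not mark fibroblasts alone. All 6 tested fibroblast markers of 7 were below 0 in G93A/G93A against WT/WT (median −0.44), as were 57% of miRNAs detected on all 8 arrays. Of these markers 1 passed as lower (miR-199a-5p), as did 4.83% of tested miRNAs, and miR-145a-5p was detected on 0 arrays. The summed scaled signal of the fibroblast markers was 752 to 1051 in G93A/G93A, 1274 to 1363 in G93A/WT and 1198 to 1307 in WT/WT, so G93A/G93A lay below both other groups. All 5 tested epithelial markers of 7 fell in G93A/G93A against WT/WT, where 4.83% of tested miRNAs passed as lower. Their sums were 0 to 5.36 in G93A/G93A, 61.2 to 85.0 in G93A/WT and 138 to 166 in WT/WT. miR-200a-3p and miR-141-3p were detected on 0 arrays. miR-200b-3p, miR-200c-3p, miR-429-3p and miR-203-3p were undetected on every G93A/G93A array and hold the floor value there. They met the detection filter through the other groups, so their calls are not read as support. The remaining tested marker, miR-205-5p, was detected on 2 of 3 G93A/G93A arrays. Its log2 means were 1.75 ± 1.00 in G93A/G93A, 5.73 ± 0.22 in G93A/WT and 6.88 ± 0.16 in WT/WT (SD, n = 3, 3 and 2). G93A/G93A minus WT/WT was −5.12 ± 0.51 (SE, limma adjusted p = 0.00301), with G93A/G93A 1 at the floor. All 5 also passed as lower against G93A/WT, with the same floor values, as did 5.2% of tested miRNAs. The sum of the 5 members was 819 to 1003 in G93A/G93A, 1079 to 1094 in G93A/WT and 1199 to 1351 in WT/WT.

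Of the leukocyte markers only miR-223-3p was detected, and it rose in G93A/G93A against WT/WT by 0.52 ± 0.12 (SE, limma adjusted p = 0.0433), while miR-142a-3p, miR-142a-5p and miR-150-5p were detected on 0 arrays. Its scaled signal was 131 to 159 in G93A/G93A, 133 to 146 in G93A/WT and 99.3 to 107 in WT/WT. None of the 5 tested red cell and serum markers of 7 passed, with sums of 2230 to 2962 in G93A/G93A, 2631 to 2936 in G93A/WT and 2495 to 2653 in WT/WT. The 1 detected endothelial marker of 2, miR-126a-3p, summed to 93.1 to 101 in G93A/G93A, 87.4 to 113 in G93A/WT and 109 to 119 in WT/WT. The part of any of these cells, or of serum, in the miR-23 result was not tested.

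The mean pattern of the 5 members over the 8 arrays, each centred on its own mean, was lowest on G93A/G93A 1 (−0.65) and highest on WT/WT 1 (0.38). The members were not set to an equal spread, so the widely spread miR-27 pair weighs most in it. G93A/G93A 1 stood at −1.43 (miR-27b-3p) and −0.77 (miR-27a-3p) from the mean of G93A/G93A 2 and 3. The same gaps were −0.36 for miR-23b-3p, −0.18 for miR-23a-3p and −0.12 for miR-24-3p. Among the 418 other miRNAs detected on all arrays, those most like the mean pattern by Pearson r over the 8 arrays were miR-378d (0.971), miR-21a-5p (0.949), miR-15b-5p (0.944), miR-345-5p (0.944) and miR-130a-3p (0.942). miR-21a-5p is also in the fibroblast list. In G93A/G93A against WT/WT these 5 differed by −0.50 to −0.31 and none passed (limma adjusted p between 0.194 and 0.304), and none passed in the other comparisons.

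The processing choices acted unevenly on the 2 calls. Some settings (the floor, the filter, the fit's spread, a G93A/WT array left out) cannot move a member's difference between G93A/G93A and WT/WT, only its p. The row block, the fit within 1 row and leaving out WT/WT 1 give the same difference. The settings are thus not 23 separate checks of direction. Over 23 other settings, G93A/G93A minus WT/WT stayed below 0 for miR-23a-3p (−0.66 to −0.37) and miR-23b-3p (−0.86 to −0.60), as it did for miR-24-3p and miR-27a-3p. It passed in 6 of the 23 for miR-23a-3p and in 14 of the 23 for miR-23b-3p, and among the settings that lost both were no scaling, the slide row as a block and leaving out either WT/WT array.

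**Figure D5:**
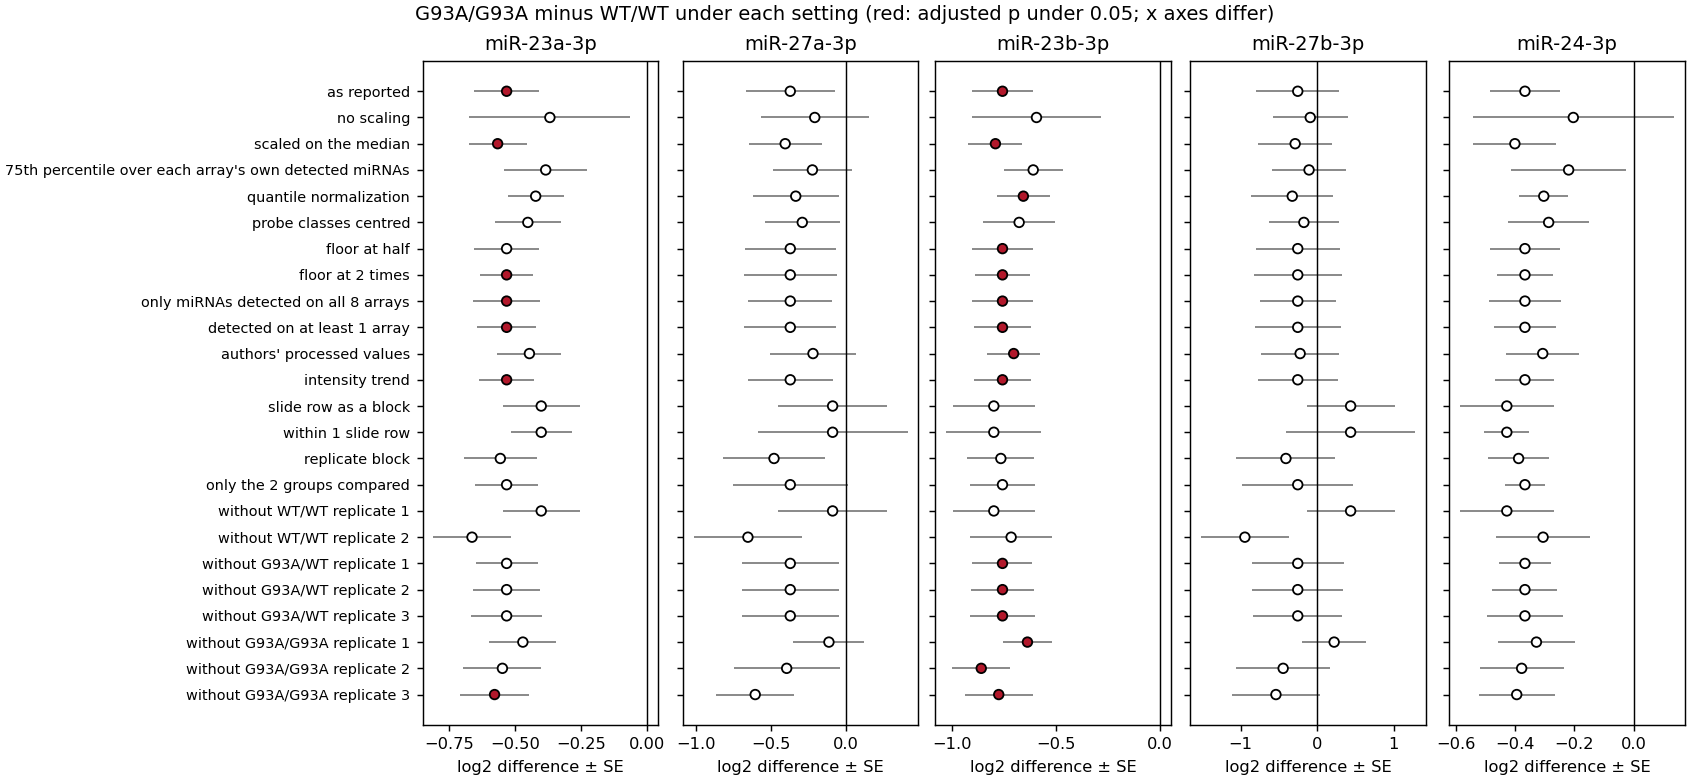
Each panel shows G93A/G93A minus WT/WT as a log2 difference ± SE for 1 member, with a line for the reported value and for each of 23 other settings, filled where the adjusted p was under 0.05. miR-23b-3p is filled in 14 of the 23 and miR-23a-3p in 6, while miR-27b-3p lies on both sides of 0.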

How the data were processed

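The members and the lists were chosen with earlier results of these data known. Per the file headers, the deposited files of single arrays hold the total gene signal of each miRNA, which is an intensity on a linear scale, with its error and a call of whether it was detected. Undetected miRNAs have a signal of 0.1 there, and the background step is unstated in the labels and headers. A deposited table of the authors' processed intensity values (492 mouse miRNAs, linear scale and uncentred judged from its values, array medians 23.2 to 26.5, normalization unknown) served as an alternative only.

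Signals were scaled per array to an equal 75th percentile over the 423 miRNAs detected on all 8 arrays (scale factors 0.593 to 1.44), floored at 1.52 (log2 0.60) and log2-transformed. limma 3.58.1 in R 4.3.3 (lmFit, eBayes, prior degrees of freedom 1.96) was fitted to all 8 arrays with a mean per group, and Benjamini-Hochberg adjustment ran over 538 miRNAs at a threshold of 0.05. Adjusted p-values of single miRNAs come from this fit unless a permutation test is named. Ratios were compared with exact permutation tests over arrays, 2-sided. Precision is limited by the 2 or 3 arrays in each group. Per the labels, the samples are biological replicates, with no litter or culture day named.

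The text names the 5 members, the opposite arms, the 5 miRNAs most like the members' mean pattern, every listed myogenesis or atrophy miRNA that passed, and cell markers. Alternatives changed the scaling, the floor, the filter, the fit, the slide block and the arrays used. Same-numbered arrays of different groups did not deviate together (r = −0.31 to 0.31 over 7 pairs), so the replicate numbers were not taken to pair them. The deviations of the WT/WT arrays mirror each other by construction, so this check cannot exclude a pairing.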

Additional observations from a re-analysis of the deposited data

How the results depend on the processing

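For the 20 limma results of the members, 450 alternative values were computed: 383 kept their direction and side of the threshold, 26 kept the direction but no longer passed, 10 kept the direction and passed where the reported value did not, and 31 reversed, of which 1, miR-23b-3p against the midpoint without scaling, passed. For the 18 ratios within an array, 121 of 144 alternative values kept their direction and 23 reversed; their exact permutation p cannot go below 0.1, so no threshold applies to them. The 450 values are not separate checks. Floor and filter settings leave the members' differences unchanged and act only on their p. Some fits also coincide, such as the 2 groups alone and leaving out a WT/WT array in G93A/G93A minus G93A/WT. The tally is thus no measure of stability. Where the alternative's construction does not give the cause (fewer arrays, fewer miRNAs), the cause was not tested. What signal over background limits here is the dim end, where miR-23a-5p lay near the floor. miR-27b-3p, with a raw signal down to 10.9, had the largest given error of the members relative to its signal (up to 14.2%).

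For G93A/G93A minus WT/WT, miR-23a-3p and miR-23b-3p no longer passed without scaling (−0.37 and −0.595), with the 75th percentile over each array's own detected miRNAs (−0.38 and −0.61), with old and recent miRNAs centred apart, split at number 1000 (−0.45 and −0.68), with the slide row as a block or within 1 row (−0.40 and −0.80), with a replicate block (−0.56 and −0.77) and with only the 2 groups in the fit (−0.53 and −0.76). miR-23a-3p alone also missed it with quantile normalization (−0.42), the floor at 0.5 times its value (−0.53) and the authors' processed values (−0.446). Their adjusted p ran from 0.0228 to 0.809 and from 0.0177 to 0.489. miR-27b-3p reversed with the row block or within the row (0.44). Leaving out 1 array gave −0.66 to −0.40 for miR-23a-3p, −0.86 to −0.64 for miR-23b-3p and −0.95 to 0.44 for miR-27b-3p. The replicate numbers were not taken to pair the arrays. The replicate block lost both miR-23 calls, and no other member call existed to be lost.

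For G93A/WT minus WT/WT, the sign turned without scaling (miR-23a-3p 0.36, miR-23b-3p 0.34, miR-24-3p 0.67), with each array's own percentile (miR-23a-3p 5.5e-05, miR-24-3p 0.31), with quantile normalization (miR-24-3p 0.058), with the authors' values (miR-24-3p 0.0066) and with the row block or within the row (miR-27a-3p −0.13, miR-27b-3p −0.070). Scaled on the median, miR-23a-3p passed (−0.52, adjusted p = 0.0436, range over settings 0.0436 to 1). Leaving out 1 array gave −0.13 to 0.44 for miR-27a-3p and −0.070 to 1.31 for miR-27b-3p.

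For G93A/G93A minus G93A/WT, values passed without scaling (miR-23b-3p −0.94, miR-27a-3p −1.13, miR-27b-3p −1.48, miR-24-3p −0.87), where the median of all miRNAs was −0.68, with the own percentile (miR-23b-3p −0.60) and with quantile normalization (miR-24-3p −0.36). The sign turned with classes centred (miR-23a-3p 0.053) and with the row block (miR-23a-3p 0.14, miR-27a-3p 0.042, miR-27b-3p 0.51). Here and against the midpoint, the row block takes its row effect from 1 WT/WT array per row.

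Against the midpoint, no scaling, where the median was 0.73, gave 0.54 for miR-23a-3p and passing values for miR-23b-3p (0.64), miR-27a-3p (1.03), miR-27b-3p (1.44) and miR-24-3p (0.77). The own percentile gave miR-23a-3p 0.19 and miR-23b-3p 0.29, the row block miR-23b-3p 0.014, miR-27a-3p −0.086 and miR-27b-3p −0.29, the median miR-24-3p −0.016 and centred classes −0.053. Leaving out 1 array gave −0.11 to 0.0022 for miR-23b-3p.

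Ratios turned sign within 1 row for miR-23b-3p to miR-23a-3p (G93A/WT minus WT/WT, 0.16) and, to miR-24-3p, for miR-23a-3p (0.028) and miR-27a-3p (0.34) in G93A/G93A minus WT/WT and for miR-27a-3p (−0.086) and miR-27b-3p (−0.026) in G93A/WT minus WT/WT. They turned with the authors' values for miR-27b-3p to miR-27a-3p (−0.0034) and miR-27a-3p to miR-24-3p (0.088) in G93A/G93A minus WT/WT and for miR-23b-3p to miR-24-3p (0.0012) in G93A/G93A minus G93A/WT, and with quantile values for the last (0.038) and for miR-27b-3p to miR-24-3p in G93A/G93A minus WT/WT (−0.022). Leaving out 1 array gave, for G93A/G93A minus WT/WT, −0.29 to 0.53 for miR-27b-3p to miR-27a-3p and, to miR-24-3p, −0.36 to 0.028 for miR-23a-3p, −0.35 to 0.34 for miR-27a-3p and −0.64 to 0.87 for miR-27b-3p. For G93A/WT minus WT/WT it gave −0.19 to 0.16 for miR-23b-3p to miR-23a-3p and, to miR-24-3p, −0.086 to 0.60 for miR-27a-3p and −0.026 to 1.48 for miR-27b-3p, and for G93A/G93A minus G93A/WT −0.16 to 0.042 for miR-23b-3p to miR-24-3p.

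The number of all miRNAs past the threshold in G93A/G93A minus WT/WT was 46, with 14 without scaling, 10 with the own percentile, 18 with classes centred, 29 among miRNAs detected on all 8 arrays, 7 with the row block, 9 within the row, 10 with the replicate block, 17 with the 2 groups alone, and 7 (without WT/WT 1) to 57 with 1 array left out. For G93A/WT minus WT/WT it was 21, with 130, 42, 12 (quantile), 34 (floor at 2 times), 0 (detected on all 8, with 103 at an unadjusted limma p under 0.05), 37 (detected on at least 1), 5 (authors' values), 8 (replicate block), 43 (2 groups), and 7 (without WT/WT 1) to 61 (without G93A/G93A 3). For G93A/G93A minus G93A/WT it was 57, with 149 without scaling, 0 with the row block (73 unadjusted), 12 with the slide column as a block, 37 with the replicate block, and 38 to 122 (without G93A/G93A 3). Against the midpoint it was 40, with 315 without scaling, 102, 26 (detected on all 8), 4 (row block), 12 (replicate block), and 25 (without G93A/WT 2) to 82 (without G93A/G93A 3).

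The split of higher to lower calls in G93A/G93A minus WT/WT was 20 to 26, and 5 to 28 scaled on the median, 2 to 8 with the own percentile and 4 to 14 with classes centred. In G93A/WT minus WT/WT it was 17 to 4, and 130 to 0 without scaling, 42 to 0 with the own percentile, 16 to 11 on the median, 4 to 8 with quantile and 2 to 3 with the authors' values. In G93A/G93A minus G93A/WT it was 29 to 28, and 1 to 148 without scaling, 4 to 76, 18 to 29 with classes centred and 35 to 10 with the authors' values. Against the midpoint it was 18 to 22, and 315 to 0, 102 to 0, 9 to 23 (quantile), 18 to 10 (classes centred) and 5 to 28 (authors' values). Fits within 1 row could not be made for the last 2 contrasts, since no row holds their groups.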
